A study of Mus musculus with 4 samples.

Results

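The genes that build cholesterol and fatty acids were examined in crypts of the mouse intestine, the epithelial pockets that hold stem cells, Paneth cells and dividing progenitors. The set was a list of 33 genes, namely 19 of sterol synthesis, 9 of fatty acid synthesis and 5 regulators. A gene was measured where the array had a probe set annotated to it alone, and the probe set with the highest mean over the 4 arrays stood for it. This gave 32 of the 33 genes, among 11395 genes that passed a filter on dim signal. All 32 passed that filter. Acat2, which encodes an acetoacetyl-CoA thiolase, had no such probe set and was not analysed here.

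Crypts cut out by laser were compared on 4 single-colour arrays, 2 of control mice and 2 of mutant mice lacking beta-catenin, the co-activator of Wnt signalling. Deletion had been induced with tamoxifen 2 days before. The sources used here do not give the driver of the deletion, the deleted exons, the strain, the age, or whether control mice also received tamoxifen. The labels do not say that the arrays of a group came from separate mice, so that the spread between them may be technical.

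Cholesterol is made from acetyl-CoA through mevalonate, isoprenoid diphosphates, squalene and lanosterol. Fatty acids are made from the same precursor by carboxylation, chain building, elongation and desaturation. Both branches are controlled by the SREBP transcription factors, which the escort protein Scap carries out of the endoplasmic reticulum when sterols are low and which the Insig proteins hold back when sterols are plentiful. The intestinal epithelium is a major site of cholesterol synthesis, and dividing crypt cells need both products for new membranes.

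Values below are levels on the log2(intensity + 5) scale after quantile normalization, and differences are mutant minus control on that scale, which understates changes of dim genes. The filter left 22519 probe sets, and of these 0 passed the test (limma, Benjamini-Hochberg adjusted p under 0.05, 0% called), while 1415 had an unadjusted p under 0.05. The count was also 0 with robust estimation and with no intensity trend; it was 2 with unscaled values and 102 after median centring, no member among them. The brighter probe set of Ctnnb1, which encodes beta-catenin, stood at 12.43 and 12.56 in control crypts and 12.02 and 11.85 in mutant crypts (difference -0.56, SE 0.22, limma adjusted p = 0.785), and a dimmer one differed by 0.38 (SE 0.50). Which part of the gene either detects relative to the deletion is not known. Of 12 listed markers of crypt epithelium, Epcam was high on all arrays, between 12.82 and 12.88, and Vil1 between 11.33 and 12.13. The epithelial genes Krt18 and Cdx1 were lower, at 9.20 to 10.33 and 7.35 to 8.37. Among stem cell markers Olfm4 was bright, at 10.93 to 12.52, while Lgr5 and Ascl2 stood at 4.67 to 6.19 and 6.15 to 7.34. Mutant replicate 1 stood apart, since 11 of 12 listed pancreatic acinar genes were measured and averaged 12.59 there, against 4.95 and 5.06 in the controls and 4.68 in mutant replicate 2. As a measure of how far transcripts were shortened, 5' over 3' signal of beta-actin was higher on the arrays numbered 1 (control 0.149, mutant 0.0945) than on those numbered 2 (control 0.0567, mutant 0.0448). The part of these features in the results was not tested.

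Sterol synthesis genes stood mostly above the control level in the mutant crypts, by modest amounts, and none passed the test. Of 18 measured members 16 had a higher mutant mean, against 50.7% of all genes tested, and the median difference was 0.38, against 0.01 over all genes. Both mutant arrays lay above both control arrays for 8 members (Hmgcs1, Mvd, Fdft1, Sqle, Lss, Cyp51, Hsd17b7 and Dhcr7), or 44.4%, where 18.9% of all genes tested did so. Both mutant arrays lay below both control arrays for 0 of the 18, against 19.2% of all genes. These counts depend in part on the scaling: with the values as deposited 8 sterol genes were again higher without overlap (14.8% of all genes), but 5 of them were the same genes, since Sqle, Hsd17b7 and Dhcr7 overlapped and Mvk, Idi1 and Stard4 separated. Median centring gave 7 (18.7% of all genes), and the same 3 genes overlapped. The choice of probe set also mattered. With the mean over the kept probe sets of a gene, 14 of 18 sterol genes were higher (50.2% of all genes). Without overlap, 9 were higher (18.2% of all genes) and 1 lower (20.1%). The mean over all probe sets kept 17 sterol genes, 13 of them higher (50% of all genes). On the reported probe sets of all 32 lipid synthesis genes, after quantile normalization, 11 were higher without overlap, 4 were lower without overlap and 17 overlapped. An unadjusted p under 0.05 was found for 3 members, or 9.38% of the set, against 6.94% of all genes. They were Cyp51 and Fdft1 on the higher side (3.32% of all genes) and Fads1 on the lower side (3.62%), and the lowest adjusted p among the members was 0.768 (limma).

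**Figure D1:**
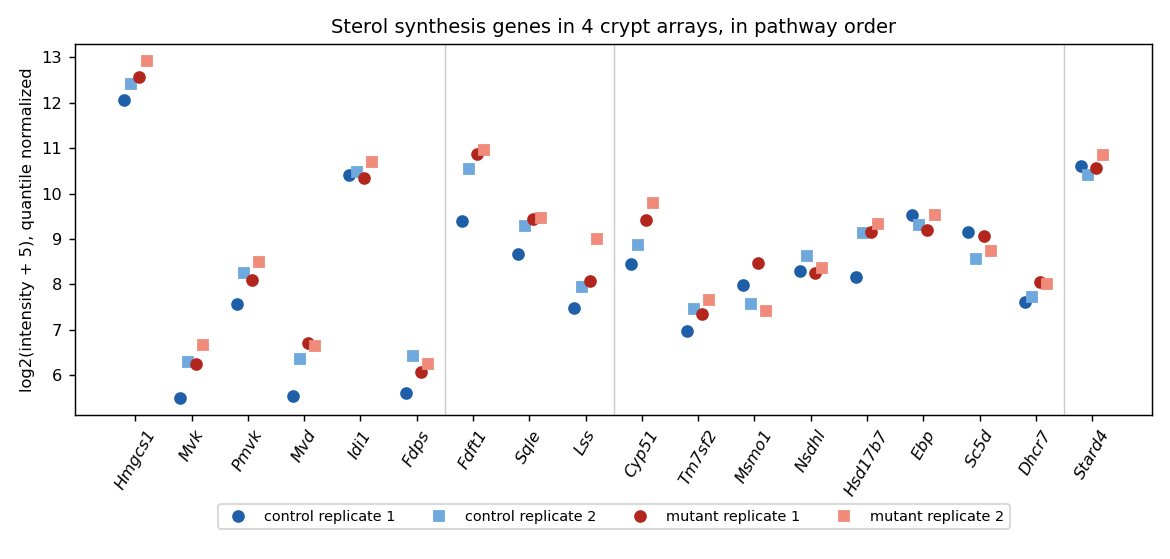
Levels of 18 sterol synthesis genes in each of the 4 crypt arrays, as log2(intensity + 5) after quantile normalization, in pathway order, with grey lines between the mevalonate, squalene and lanosterol steps and the carrier Stard4. Blue points are controls and red points mutants; control replicate 1 is the lowest array for 12 of the 18 genes, and levels of different genes are not comparable.

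The steps from acetyl-CoA to the isoprenoid diphosphates were covered by 6 measured genes, all with a positive difference, from 0.08 to 0.73. Hmgcs1, whose enzyme condenses acetyl-CoA units on the way to mevalonate, stood at 12.05 and 12.40 in control crypts and at 12.56 and 12.92 in mutant crypts. The deposited intensities were 3726, 5340, 7318 and 8132 in the same order. Both mutant arrays were above both controls, but the step between the groups was no larger than the step within each. The difference was 0.52 (SE 0.24, 1.43-fold, limma adjusted p = 0.789), and the 4 other probe sets of Hmgcs1 lay between 0.42 and 0.89. Mvd, the decarboxylase that forms isopentenyl diphosphate, stood at 5.55 and 6.36 in controls and 6.72 and 6.65 in mutants, a difference of 0.73 (SE 0.41, limma adjusted p = 0.807). Its second kept probe set was at -0.02. Control replicate 1 was the array that stood apart for Mvd, and the difference was 0.34 without it. The kinase genes Mvk and Pmvk, whose enzymes phosphorylate mevalonate and then phosphomevalonate, differed by 0.56 (SE 0.42) and 0.39 (SE 0.39). Their groups overlapped. Idi1, the isomerase gene, and Fdps, which makes farnesyl diphosphate, were nearly level at 0.08 (SE 0.29) and 0.14 (SE 0.41). Idi1 had a second probe set at -0.30, and Fdps was at -0.02 with the values as deposited.

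All 3 genes of the squalene steps were higher without overlap after quantile normalization, as were 18.9% of all genes. Fdft1 and Lss were so in the deposited values too, against 14.8% of all genes. Fdft1 encodes squalene synthase, the first enzyme committed to sterols. It stood at 9.39 and 10.53 in control crypts and at 10.86 and 10.96 in mutant crypts. Control replicate 1 was low, while control replicate 2 lay close to the mutants. The difference was 0.95 (SE 0.39, 1.93-fold, limma adjusted p = 0.785), with a second kept probe set at 0.73, and it was 0.38 without control replicate 1. Sqle, the squalene epoxidase gene, had levels of 8.67 and 9.28 in controls and 9.43 and 9.47 in mutants, a difference of 0.47 (SE 0.35). Its deposited intensities of 383 and 609 in controls and 906 and 586 in mutants overlapped. On the normalized scale it showed the same layout as Fdft1, with 0.17 left when control replicate 1 was dropped. For Lss, which closes squalene epoxide into lanosterol, the deposited intensities were 176 and 243 in controls and 337 and 417 in mutants. On the normalized log2 scale mutant replicate 2 was the array that stood apart. The difference of 0.83 (SE 0.42, limma adjusted p = 0.794) came with other probe sets at 0.53 and 0.74, and it was 0.37 without mutant replicate 2.

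The conversion of lanosterol to cholesterol was less uniform, with 6 of 8 genes higher and differences from -0.14 to 0.96. Cyp51, which demethylates lanosterol, had the smallest p of the sterol genes. Its levels were 8.44 and 8.87 in controls and 9.41 and 9.80 in mutants, and its deposited intensities 331, 459, 899 and 744. The gap between the groups exceeded the gap within either group. The difference was 0.96 (SE 0.34, 1.94-fold, unadjusted p = 0.0232, limma adjusted p = 0.768), and it stayed between 0.75 and 1.18 with each array left out in turn. A dimmer kept probe set of Cyp51, however, gave 0.10. Dhcr7, a late reductase of the pathway, stood at 7.61 and 7.72 in controls and 8.05 and 8.02 in mutants (difference 0.37, SE 0.34). The deposited intensities were 192 and 209 in controls and 329 and 202 in mutants and overlapped. Its range with an array left out was 0.32 to 0.43.

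Hsd17b7, a ketosteroid reductase gene, stood at 8.17 and 9.13 in controls and 9.16 and 9.32 in mutants, so that the groups barely separated, and they overlapped as deposited, at 278 and 546 in controls and 750 and 523 in mutants. Its reported probe set, of a type that can bind other transcripts, gave 0.60 (SE 0.40), whereas its 3 other kept probe sets gave -0.55, -0.49 and -0.91. The direction for Hsd17b7 is therefore not settled. The reductase gene Tm7sf2 differed by 0.28 (SE 0.37) and the oxidase gene Msmo1 by 0.17 (SE 0.44). Nsdhl, a dehydrogenase, Ebp, an isomerase, and Sc5d, a desaturase, were close to level at -0.14 (SE 0.34), -0.07 (SE 0.32) and 0.04 (SE 0.36). The second kept probe set of Sc5d gave 0.62 (SE 0.42), and the mean over both was 0.33. With median centring Nsdhl and Ebp turned to 0.02 and 0.19. Stard4, a carrier that moves cholesterol between membranes, gave 0.20 (SE 0.28) on its brightest probe set. The 2 others gave -0.20 (SE 0.31), lower without overlap, and 0.40 (SE 0.33), higher without overlap.

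One control array weighed on these values. Control replicate 1 was the lowest of the 4 arrays for 12 of 18 sterol genes (66.7%), against 30.3% of all genes tested, and mutant replicate 2 was the highest for 11 (61.1%), against 24.9%. The mean level of the 18 genes was 8.28 and 8.65 in control crypts and 8.77 and 8.93 in mutant crypts. Without control replicate 1, 16 of 18 were higher (46.7% of all genes), but not the same genes, since Fdps turned to -0.28 and Ebp to 0.04. The median difference was then 0.24. It was 0.46 with mutant replicate 1, the array with pancreatic transcripts, left out, with 15 of 18 higher (50% of all genes). Leaving out mutant replicate 2 or control replicate 2 gave 0.34 and 0.60. Enterocyte markers moved with the replicate number, at means of 10.66 and 9.71 in control crypts and 10.83 and 9.73 in mutant crypts, and did not follow this order. Smooth muscle and fibroblast markers, whose 9 genes averaged 6.98 and 7.71 in control crypts and 7.71 and 7.68 in mutant crypts, were also lowest in control replicate 1. Markers of crypt cell types differed between the groups as well, without passing the test. The stem cell markers Olfm4, Lgr5 and Ascl2 were lower without overlap, with differences of -1.36 (SE 0.24), -1.04 (SE 0.44) and -0.73 (SE 0.39), and the goblet cell mucin Muc2 was higher without overlap, at 1.04 (SE 0.27). The 12 crypt epithelium markers averaged 10.68 and 10.83 in control crypts and 10.58 and 10.50 in mutant crypts. Of these 12, 2 were higher without overlap (16.7%, against 18.9% of all genes) and 4 lower (33.3%, against 19.2%). The part of these cell types in the sterol values was not tested. In such samples fewer cells of a type and less RNA per cell cannot be told apart.

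**Figure D2:**
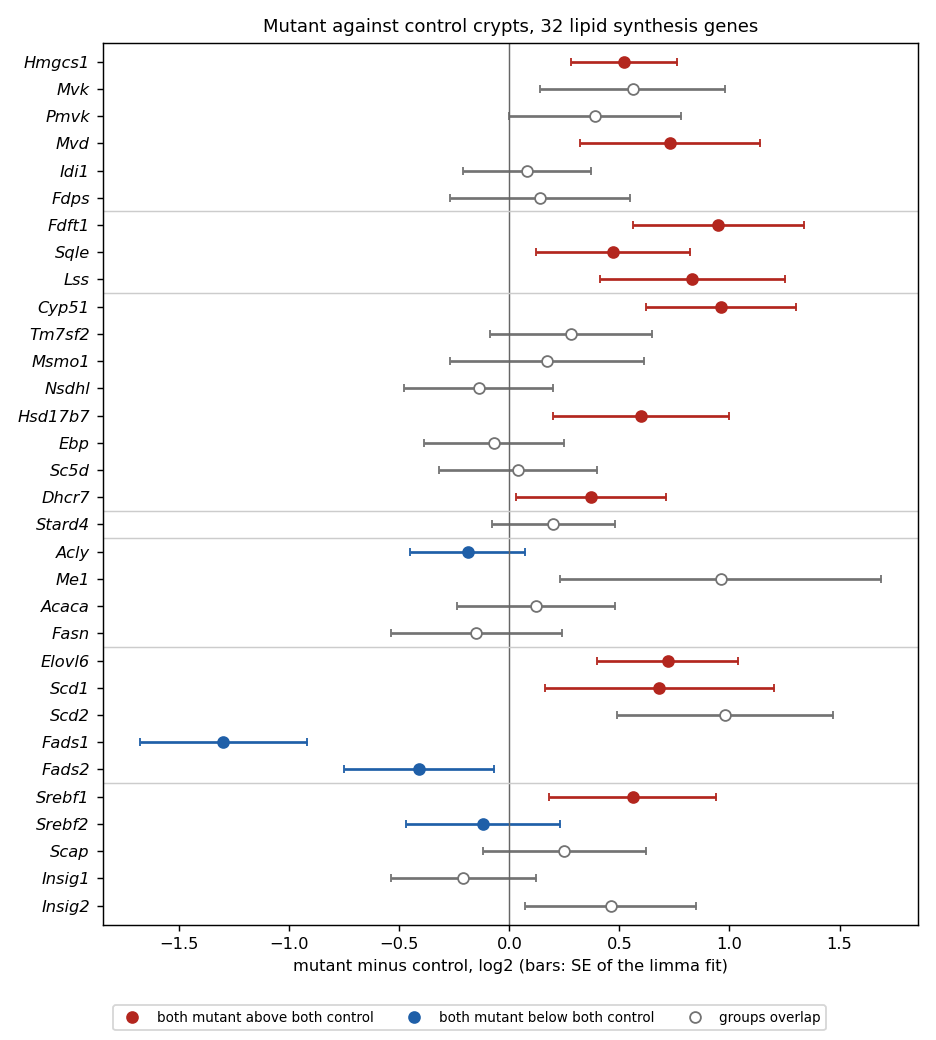
Difference between mutant and control crypts for each of the 32 measured genes, on the log2 scale, with the SE of the limma fit as bars and grey lines between pathway steps. Filled red points have both mutant arrays above both controls (11 genes), filled blue points both below (4 genes), and open points overlap (17 genes); Fads1 lies lowest, at -1.30.

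Promoter sequences of the members were examined for letters bound by known regulators of the pathway. In the RefSeq promoter table (GRCm38.p6, 250 bases before to 50 after each start), 25 of the 32 genes had an entry, of which 14 were sterol genes. Letters were searched on both strands for the sterol response element TCACNCCAC bound by SREBPs, the NF-Y box CCAAT, the GC box GGGCGG bound by Sp1, and the E-box CACGTG. Matches of different motifs can share bases at their ends. The NF-Y box was found for 14 of 14 sterol genes and 21 of 25 members (84%), against 42.6% of the 9248 kept genes with an entry and 37.4% of all 32851 promoters. The GC box was found for 13 of the 14 and again 21 of 25 (84%), against 67.9% of kept genes and 35.7% of all promoters. The E-box was found for 5 of 25 (20%), against 11.8% of kept genes and 7.15% of all promoters. The sterol response element in this strict spelling was found for 1 gene, Hmgcs1, against 1.42% of kept genes and 1.24% of all promoters. Genes with several starts had more chances to match, and a match is a description of the letters only.

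The stretches below show this layout for genes with 1 listed start, in the gene's own direction and ending before that start, with matches to the searched letters in capitals (ATTGG and CCGCCC are the NF-Y and GC boxes on the other strand). Hmgcs1 (chr13:119690175-119690334, plus strand) is shown for its sterol response element between NF-Y boxes, and Idi1 (chr13:8885446-8885605, plus strand) for 2 NF-Y boxes next to its start. Lss (chr10:76531409-76531568, plus strand) and Cyp51 (chr5:4104698-4104857, minus strand) are examples of the non-overlapping genes of the later steps. Insig1 (chr5:28071167-28071326, plus strand) is a regulator with a negative difference, and Fads2 (chr19:10101594-10101753, minus strand) a lower gene with no NF-Y box in the window. Other members with a negative difference did have an NF-Y box, namely Acly, Fasn, Nsdhl, Ebp, Srebf2 and Insig1.
Hmgcs1: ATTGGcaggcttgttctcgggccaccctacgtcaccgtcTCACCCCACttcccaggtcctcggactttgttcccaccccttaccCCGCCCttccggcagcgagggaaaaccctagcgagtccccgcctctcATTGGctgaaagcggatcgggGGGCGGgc
Idi1: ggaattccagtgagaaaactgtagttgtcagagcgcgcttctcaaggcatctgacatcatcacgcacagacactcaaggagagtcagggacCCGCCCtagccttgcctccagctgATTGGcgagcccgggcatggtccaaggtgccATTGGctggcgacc
Lss: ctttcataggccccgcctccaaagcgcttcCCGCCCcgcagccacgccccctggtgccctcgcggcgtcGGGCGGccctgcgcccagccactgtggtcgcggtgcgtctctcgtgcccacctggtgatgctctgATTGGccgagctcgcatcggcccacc
Cyp51: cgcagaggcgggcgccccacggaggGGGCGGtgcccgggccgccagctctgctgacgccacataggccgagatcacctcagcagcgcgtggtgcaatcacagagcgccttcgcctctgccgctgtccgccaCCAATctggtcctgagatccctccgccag
Insig1: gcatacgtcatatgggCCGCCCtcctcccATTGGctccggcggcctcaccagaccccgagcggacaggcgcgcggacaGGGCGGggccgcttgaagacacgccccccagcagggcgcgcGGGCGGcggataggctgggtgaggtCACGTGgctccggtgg
Fads2: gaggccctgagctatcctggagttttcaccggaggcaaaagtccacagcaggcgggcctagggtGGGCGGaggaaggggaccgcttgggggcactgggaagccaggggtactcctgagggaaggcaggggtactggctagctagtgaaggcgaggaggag

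Fatty acid synthesis genes did not share one direction. Of 9 measured members 5 were higher and 4 lower, the median difference was 0.12, 2 were higher without overlap (22.2%, against 18.9% of all genes) and 3 were lower without overlap (33.3%, against 19.2%). These counts depended on the scaling. On the lower side Acly overlapped with the values as deposited (14.9% of all genes lower without overlap). Acly and Fads2 both overlapped after median centring (10.1%), which left Fads1. On the higher side Scd2 separated in both settings, and Scd1 overlapped as deposited. With an array left out, the median lay between -0.09 (without mutant replicate 2) and 0.26 (without control replicate 2).

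Genes of precursor supply and chain building had small differences on their reported probe sets, apart from Me1. Acly, which cleaves citrate into cytosolic acetyl-CoA, stood at 11.37 and 11.15 in controls and 11.00 and 11.14 in mutants, a difference of -0.19 (SE 0.26). Control replicate 2 and mutant replicate 2 were almost equal, and the value was 0.13 with median centring and 0.01 as deposited. A second, dimmer kept probe set of Acly gave -0.52 (SE 0.35), also lower without overlap, and the mean over both was -0.35. Acaca, the carboxylase gene that makes malonyl-CoA, differed by 0.12 (SE 0.36), and Fasn, the fatty acid synthase gene, by -0.15 (SE 0.39), with overlapping groups for both. Leaving out control replicate 1 put Fasn at -0.56, and leaving out control replicate 2 put it at 0.25.

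Me1, the malic enzyme gene that supplies NADPH, was high on a single array. Its levels were 7.31 and 6.79 in controls, 9.29 in mutant replicate 1 and 6.72 in mutant replicate 2, with deposited intensities of 159, 104, 824 and 79.1. Its difference of 0.96 (SE 0.73, limma adjusted p = 0.858) was -0.32 without mutant replicate 1 and 2.23 without mutant replicate 2. The second probe set of Me1 was also highest there, with a deposited intensity of 390 against 129, 44.2 and 87.3. Scd1, a desaturase that places the first double bond in saturated chains, showed the same layout at a low level. It stood at 4.94, 4.92, 6.26 and 4.97 in the same array order, and its difference of 0.68 (SE 0.52) was 0.03 without mutant replicate 1. This is the array with the pancreatic transcripts, whose 11 measured acinar genes had a summed intensity of 85106 there and of 1035 to 1655 on the other arrays. Of 6 measured adipocyte markers, 3 were highest in mutant replicate 1, and only 2, Cidec and Fabp4, passed the filter. The lipid droplet gene Cidec was at 8.16 there and at 5.24 to 5.77 elsewhere, while Fabp4 was highest in control replicate 1, at 9.86. Among the dim ones, the adipocyte hormone gene Adipoq was at 5.27 there against 2.79 to 4.08. Lep, at 3.90 there, was highest in control replicate 2 (4.05), and Retn, at 3.34 there, in control replicate 1 (4.84). The part of either tissue in the Me1 and Scd1 values was not tested.

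**Figure D3:**
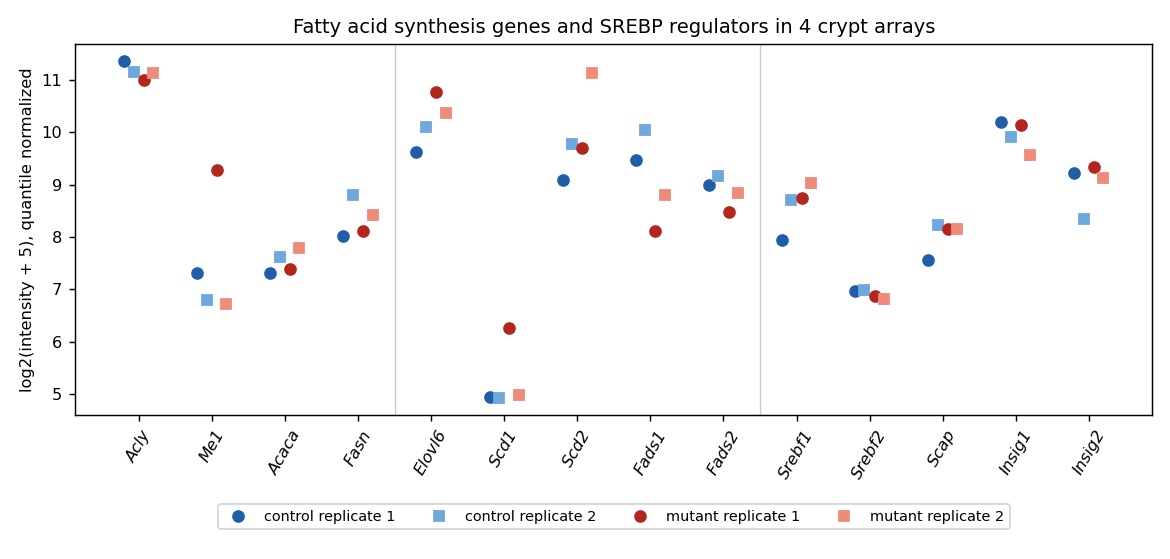
Levels of 9 fatty acid synthesis genes and 5 SREBP regulators in each of the 4 crypt arrays, as log2(intensity + 5) after quantile normalization, with grey lines between precursor and chain building, elongation and desaturation, and regulators. Me1 and Scd1 are high in mutant replicate 1 alone, at 9.29 and 6.26, Scd2 is highest in mutant replicate 2, and both mutant arrays of Fads1 lie below both controls.

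Among 5 genes of elongation and desaturation, 3 were higher and 2 lower. Elovl6, which lengthens saturated and monounsaturated chains, stood at 9.62 and 10.11 in controls and 10.78 and 10.38 in mutants. The difference was 0.72 (SE 0.32, 1.64-fold, limma adjusted p = 0.789), with other probe sets at 0.34 and 0.61 and a range of 0.48 to 0.97 with an array left out. Scd2, a second desaturase of saturated chains, had levels of 9.10, 9.78, 9.70 and 11.14. On this normalized scale mutant replicate 2 was high and mutant replicate 1 lay within the controls. The deposited intensities, 510 and 861 in controls and 1079 and 1994 in mutants, did not overlap. The Scd2 difference of 0.98 (SE 0.49) was the highest of the 32 and was 0.25 without mutant replicate 2.

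Fads1, which encodes the delta-5 desaturase of polyunsaturated fatty acids, gave the largest difference of the set in either direction. It stood at 9.47 and 10.04 in control crypts and at 8.12 and 8.80 in mutant crypts, with deposited intensities of 652, 1027, 346 and 356. Both mutant arrays were below both controls, and the gap between the groups was about the size of the spread within each. The difference was -1.30 (SE 0.38, 2.46-fold lower, unadjusted p = 0.0088), which did not pass over all probe sets (limma adjusted p = 0.768). By unadjusted p Fads1 ranked 141 of 11395 genes. Its second, dimmer probe set stood at 5.68 and 6.16 in controls and 5.08 and 5.36 in mutants, a difference of -0.70 (SE 0.41) and again without overlap. With each array left out in turn the value for Fads1 lay between -1.62 and -0.95, and across the scaling alternatives it remained negative. Fads2, the neighbouring gene for the delta-6 desaturase of the same route, was at 8.99 and 9.16 in controls and 8.48 and 8.84 in mutants (difference -0.41, SE 0.34, limma adjusted p = 0.868). Its other probe sets gave -0.17 and -0.03 with overlapping groups.

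Regulators of the pathway showed small differences in both directions. Srebf1, whose SREBP-1 protein mainly drives fatty acid genes, stood at 7.95 and 8.71 in controls and 8.75 and 9.03 in mutants. Control replicate 2 and mutant replicate 1 were almost equal, and the difference was 0.56 (SE 0.38), or 0.18 without control replicate 1. Srebf2, whose SREBP-2 protein mainly drives sterol genes, was nearly constant, at 6.96, 6.98, 6.88 and 6.82. Its difference of -0.12 (SE 0.35) contrasted with 0.72 (SE 0.43) on its second kept probe set, where both mutant arrays were above both controls. Scap stood at 7.57, 8.23, 8.15 and 8.16, and differed by 0.25 (SE 0.37).

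The Insig genes, which encode the proteins that hold SREBPs back, gave values of opposite sign with overlapping groups on their reported probe sets. Insig1 levels were 10.20 and 9.92 in controls and 10.14 and 9.56 in mutants, a difference of -0.21 (SE 0.33), or 0.06 with median centring. Insig2 stood at 9.22 and 8.34 in controls and 9.34 and 9.13 in mutants. Control replicate 2 was the low array of this probe set. The difference of 0.46 (SE 0.39) became 0.91 when control replicate 1 was left out and 0.02 when control replicate 2 was. Another probe set of Insig2 stood at 8.06 and 8.29 in controls and 8.85 and 8.82 in mutants. It was higher without overlap (difference 0.66, SE 0.33), while a further one gave 0.18 (SE 0.37) with overlapping groups.

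**Figure D4:**
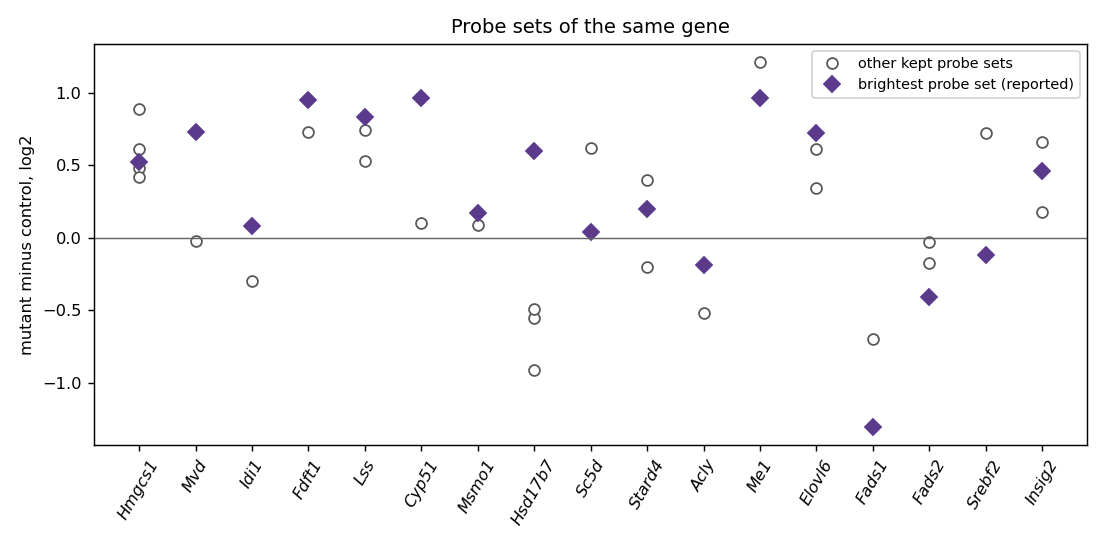
Difference between mutant and control crypts, on the log2 scale, for every kept probe set of the 17 genes that had more than 1; diamonds are the brightest probe sets, which the text reports, and open circles the others. For 12 genes all probe sets share a sign, and for 5 (Mvd, Idi1, Hsd17b7, Stard4 and Srebf2) at least 1 is opposite.

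Members differed in how far their probe sets agreed. Of the 32 genes, 17 had more than 1 kept probe set, and for 12 of these every other probe set had the sign of the reported one. Hmgcs1, Fdft1, Lss, Cyp51, Msmo1, Sc5d, Me1, Elovl6 and Insig2 were positive throughout, and Fads1, Fads2 and Acly negative throughout. The reported probe sets of Fdft1, Hsd17b7, Acly and Fads2 are of the type that can bind other transcripts, and those of Mvd and Lss are of the type whose probes are shared by several transcripts. The remaining 15 genes rested on 1 kept probe set each.

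Related genes of sterol handling were described from a separate list of 23, of which 17 were measured and kept. Of these, 10 were higher and 7 lower, 6 were higher without overlap (35.3%, against 18.9% of all genes) and 2 lower without overlap (11.8%, against 19.2%), and 0 passed the test. The median difference was 0.07, against 0.01 over all genes. Mylip, whose ubiquitin ligase removes lipoprotein receptors, stood at 6.19 and 5.43 in controls and 6.98 and 6.93 in mutants (difference 1.14, SE 0.40, limma adjusted p = 0.768). Abcg5, which returns sterols to the gut lumen, was at 9.97 and 8.83 against 10.43 and 10.38 (2.01-fold higher, SE 0.40 on the log2 scale). Erlin1, a membrane protein linked to sterol control, differed by 0.75 (SE 0.29), and Npc1l1, the cholesterol uptake gene of the brush border, by 0.72 (SE 0.36), both without overlap. On the lower side, Ggps1, which makes geranylgeranyl diphosphate, differed by -0.73 (SE 0.43) and the SREBP-processing protease gene Mbtps1 by -0.26 (SE 0.33), both without overlap.

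Fatty acid handling was covered by 21 listed genes, of which 20 were measured and 19 kept. Here 11 were higher and 8 lower, with 5 higher without overlap (26.3%, against 18.9% of all genes) and 2 lower without overlap (10.5%, against 19.2%). The median difference was 0.35, against 0.01 over all genes, and 0 passed the test. Pcyt2, of phosphatidylethanolamine synthesis, stood at 8.89 and 8.88 in controls and 9.92 and 9.45 in mutants (difference 0.80, SE 0.33, limma adjusted p = 0.785). The pentose phosphate gene Pgd, a source of NADPH, differed by 0.35 (SE 0.23). Acss2, which makes acetyl-CoA from acetate, was at 8.97 and 9.07 in controls and 8.51 and 8.31 in mutants (difference -0.61, SE 0.33), and Fabp5, a fatty acid binding protein gene, differed by -0.56 (SE 0.32).

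**Figure D5:**
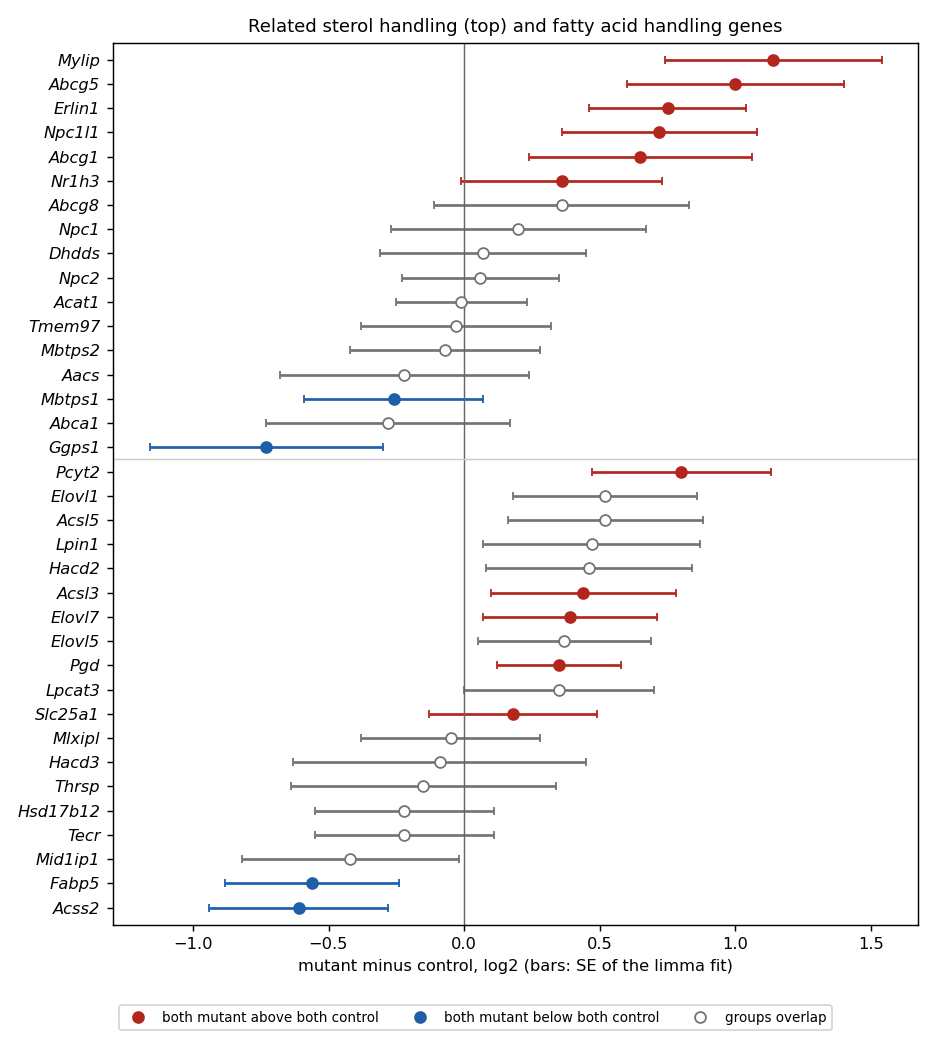
Difference between mutant and control crypts for 17 related genes of sterol handling (top) and 19 of fatty acid handling (bottom), on the log2 scale, with the SE of the limma fit as bars. Colours are as for the lipid synthesis genes: red for both mutant arrays above both controls, blue for both below, open for overlap.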

How the data were processed

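Laser-captured crypts of 2 control and 2 mutant samples were profiled on 1 array each, after 2 rounds of mRNA amplification per the labels. The authors deposited linear intensities per probe set, computed with MAS5 per the submitters' processing notes; its version and scaling target are not given there. Mismatch signal is subtracted by MAS5, which makes dim probe sets noisy, and amplification favours 3' ends.

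The members, gene lists, motifs and tests were chosen with earlier results of these data known. Values were taken as log2(intensity + 5), 5 being the rounded 20th percentile. Trimmed means (2% trimmed) of the arrays differed 1.53-fold, beyond a limit of 10%, so quantile normalization was applied. Of 45101 probe sets, 64 controls were left out, and the 22519 at or above the 50th percentile of mean signal (4.79) were kept. Of 45037 probe sets, 34945 had 1 gene symbol, 932 several (not used to name a gene) and 9160 none in the platform annotation. Groups were compared with limma 3.58.1 (R 4.3.3; eBayes with an intensity trend, 2 residual and 6.4 prior degrees of freedom, two-sided), and p-values were adjusted over all kept probe sets by Benjamini-Hochberg. The code was tested on simulated data. Only 4 arrays limit the precision.

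Named with values on every array were members with non-overlapping groups, those with the 8 largest differences and the 5 regulators. Of each related list up to 4 genes a direction were named by smallest p, some with their difference alone. Alternatives covered scaling, pseudocount, filter, variance model, a replicate block, the choice of probe set and each array left out with the probe sets and filter held.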

Additional observations from a re-analysis of the deposited data

How the results depend on the processing

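Under the 16 alternatives (15 planned and 1, the mean over kept probe sets, added after the data had been seen) 0 members passed the test; the lowest adjusted p of a member was 0.179, without mutant replicate 2. Over all kept probe sets the count of calls was 0 in the reported fit, 2 as deposited, 102 with median centring, 1 with the replicate block and 0 to 84 with an array left out. The limits are 2 arrays a group, overlapping probe sets and scaling. With the values as deposited, Fdps stood at -0.02, Ebp at 0.07 and Acly at 0.01, and 2 members were lower without overlap, while the share of all genes fell from 19.2% to 14.9%. Median centring, which moved the median of all kept probe sets by 0.09, gave 1 such member (10.1% of all genes) and put Nsdhl at 0.02, Ebp at 0.19, Acly at 0.13 and Insig1 at 0.06. Averaging all probe sets of a gene kept 30 members. Without overlap, 2 of them were lower (19.6% of all genes) and 14 higher (18.1%). This setting put Idi1 at -0.11, Hsd17b7 at -0.34, Acly at 0.08 and Srebf2 at 0.30. Averaging the kept probe sets gave -0.11, -0.34 and 0.30 for Idi1, Hsd17b7 and Srebf2. The stricter filter kept 29 members and put the median of the fatty acid genes at -0.02. The probe set of highest deposited intensity put Idi1 at -0.30. The cause of these turns in sign was not tested.

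With each array left out in turn, 14 to 19 members were higher and 7 to 8 lower without overlap. Fewer arrays overlap less often, and the share among all genes then rose to between 32 and 38.6% higher and between 33 and 37.2% lower. The count of 19 was without control replicate 2 and that of 18 without mutant replicate 1. The median difference lay between 0.24 and 0.60 for the sterol genes and between -0.09 and 0.26 for the fatty acid genes. Signs turned within these ranges for Idi1 (-0.10 to 0.27), Fdps (-0.28 to 0.53), Msmo1 (-0.35 to 0.69), Nsdhl (-0.31 to 0.03), Ebp (-0.23 to 0.10), Sc5d (-0.26 to 0.35), Me1 (-0.32 to 2.23), Acaca (-0.09 to 0.32), Fasn (-0.56 to 0.25), Scap (-0.08 to 0.58) and Insig1 (-0.50 to 0.08).

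The arrays of both groups carry the numbers 1 and 2, but deviations of same-numbered arrays from their group means correlated at 0.03 over all kept probe sets, and they were not treated as pairs. That correlation was not given for the members alone, and replicate number did go with their levels. The mean of the 18 sterol genes was lower on both arrays numbered 1 (control 8.28, mutant 8.77) than on those numbered 2 (control 8.65, mutant 8.93). Enterocyte markers and the beta-actin ratio were higher on both arrays numbered 1. The part of replicate number in the member differences was not tested. With the replicate block 0 members and 1 probe set of 22519 passed, and the lowest adjusted p of a member was 0.493.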
